A study of Mus musculus with 3 samples.

Results

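The genes described here are those whose symbols start with Ube2, the name used for E2 enzymes of the ubiquitin system, read in mouse dendritic cells on 3 arrays. The members are the probe sets whose platform annotation gives exactly 1 gene symbol and whose symbol starts with Ube2, leaving out Ube2c and Ube2l6. This rule uses names only, and it found 79 of 45101 probe sets, for 31 of the 18193 genes that have a probe set with 1 symbol. A member is called an E2 gene below by its name, and not every member need encode an E2 enzyme. Ube2d-ps, for example, is a long noncoding RNA gene in RefSeq. A probe set is a group of short probes read together as 1 measurement of a transcript. Ube2l3 is read only by probe sets that list several symbols and so falls outside the rule.

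An E2 enzyme takes ubiquitin from an E1 activating enzyme onto a cysteine and passes it on, together with an E3 ligase, to a target protein. The E2 largely sets which chain is built: K48-linked and K11-linked chains send proteins to the proteasome, whereas K63-linked chains assemble signalling complexes. In dendritic cells K63-linked chains made by Ube2n act between Toll-like receptors and NF-kB, and K48-linked chains feed the proteasome that makes peptides for MHC class I.

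The cells were bone marrow dendritic cells of female mice aged 6 weeks, grown with GM-CSF at 20 ng/mL and taken on day 7 as the nonadherent fraction. They were kept for 24 h with PBS (the control, labelled C57BL/6), with LPS at 1 µg/mL (a bacterial ligand of Toll-like receptor 4, labelled C57BL/6) or with PTX at 100 ng/mL (an abbreviation the labels do not spell out, labelled C57BL/7). Each group is 1 array, so a group has no spread of its own, nothing was tested and every difference is described by its size alone. The labels do not say whether the 3 cultures shared a mouse or a marrow preparation.

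Intensities are given as deposited, on a linear scale, and a difference is that of log2(intensity + 16), which understates the differences of dim probe sets. A gene counts as measured where its brightest probe set, called its representative below, reached 78.9 on 1 array or more, which is the median intensity of the 3 arrays. Of the 31 Ube2 genes 28 were measured, 26 of them on all 3 arrays. Ube2t was measured on the PBS array alone and Ube2e2 on the PBS and LPS arrays, so both entered only through the arrays on which they were brighter. Ube2d2b (12.4 to 13.8), Ube2u (11.6 to 17.3) and Ube2cbp (39.9 to 47.3) stayed below that level on every array. Of the 79 probe sets 65 were measured, and 55 were measured on all 3 arrays.

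The LPS array stood apart from the others. Its median intensity was 65.3, against 85.7 on the PBS array and 86.9 on the PTX array, and the 18S ribosomal RNA control had a 3′ to 5′ ratio of 1.95 there, against 0.26 and 0.20. Of 10 dendritic cell markers 9 were measured, among them Cd74, H2-Ab1, Itgax and Zbtb46, and Cd209a was not. Markers of B cells (0 of 4 measured) and T cells (2 of 5) were mostly below the level. The 6 mast cell and eosinophil markers summed to 446 (PBS), 2107 (LPS) and 312 (PTX), with 3 measured, the 7 neutrophil markers to 10443, 11908 and 5441, with 5 measured, and the 9 macrophage markers to 22009.7, 34354 and 38015, with all 9 measured. The 10 dendritic cell markers summed to 30340, 41728 and 35126. Such sums hide markers that went opposite ways in LPS against PBS. S100a8 read 6074, 9306 and 4007, and S100a9 read 3877, 1924 and 1083. Csf1r read 9043, 12166 and 11151, and C1qa read 1626, 1031.5 and 3025. Prg2 read 117, 1274 and 31.4, and Cpa3 read 96.3, 550 and 74.2. Whether cells of these types contributed to the E2 differences was not tested, and in a bulk culture fewer cells of a type cannot be told apart from less RNA per cell.

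Few E2 genes lay beyond 2-fold between LPS and PBS. None of the 28 was at least 2-fold higher, against 6.50% of all 12299 measured genes, and 1 (3.57%), Ube2t, was at least 2-fold lower, against 13.0%. Over all genes that split depends on the scaling, with 33.3% of the genes beyond 2-fold lying higher as deposited and 20.9% to 56.5% over the scalings. At a limit of 1.5-fold 3 were higher (10.7%, against 13.6%) and 1 was lower (3.57%, against 22.5%). The 3 were Ube2d3, Ube2j2 and Ube2w, and with the mean over a gene's measured probe sets they came to 0.19, -0.03 and -1.27. By the representative probe sets as deposited 24 of 28 lay within 1.5-fold (85.7%, against 63.9% of all). That share depends on the scaling. With median centring and with 75th percentile scaling 10 members were at least 1.5-fold higher and 1 was lower. With hybridization control scaling these counts were 0 and 2. The shares of all genes at 1.5-fold were not counted under these scalings. The members are brighter than most genes, and 22 of them had a mean level of 500 or more. Of all 4377 genes that bright, 7.88% were at least 2-fold higher in LPS and 5.41% lower, and none of the 22 members was either.

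In PTX against PBS again none was at least 2-fold higher (3.04% of all) and only Ube2t was at least 2-fold lower (3.57%, against 2.37%). At 1.5-fold none was higher (7.44% of all), and 3 were lower, namely Ube2t, Ube2s and Ube2e2 (10.7%, against 6.29%). The differences from PTX were small for the array as a whole too, with 86.3% of all measured genes and 89.3% of the members within 1.5-fold. Both comparisons use the 1 PBS array, so a reading peculiar to it would enter both.

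In PTX against LPS more members lay beyond 1.5-fold, as deposited, than in the comparisons with PBS. Their number depends on the scaling, and most of them depend on which probe set represents the gene. None of the 28 genes was at least 2-fold higher in PTX (13.7% of all) and 1, Ube2s, was at least 2-fold lower (3.57%, against 6.24%). With median centring 6 were at least 2-fold lower, against 1517 of all 12299 genes. With hybridization control scaling 1 was, against 472 of 12353. As deposited 68.7% of all genes beyond 2-fold lay higher, and 41.9% to 82.5% did over the scalings. At 1.5-fold none was higher, against 23.3% of all genes, and 7 of 28 were lower, against 14.4%. These were Ube2s (-1.27), Ube2e2 (-0.85), Ube2j2 (-0.79), Ube2d3 (-0.76), Ube2n (-0.74), Ube2g1 (-0.66) and Ube2k (-0.61). The count lower was 15 with median centring, 14 with 75th percentile scaling, 8 with quantile normalization and 2 with hybridization control scaling. Under the last of these 1 member was higher, and the 2 lower were among the 7. The shares of all genes at 1.5-fold were not counted under these scalings. With the mean over a gene's measured probe sets 3 of the 7 stayed beyond 1.5-fold, Ube2s, Ube2e2 and Ube2n, each of which has 1 measured probe set. The other 4 came to -0.06 (Ube2j2), -0.10 (Ube2d3), -0.36 (Ube2g1) and 0.45 (Ube2k). Over the 65 measured probe sets of the family 9 were at least 1.5-fold higher in PTX than in LPS (13.8%, against 27.8% of all) and 10 were lower (15.4%, against 14.1%). Among genes with a mean level of 500 or more 7.49% were at least 2-fold higher in PTX and 6.85% lower, against 0 and 1 of the 22 members.

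**Figure D1:**
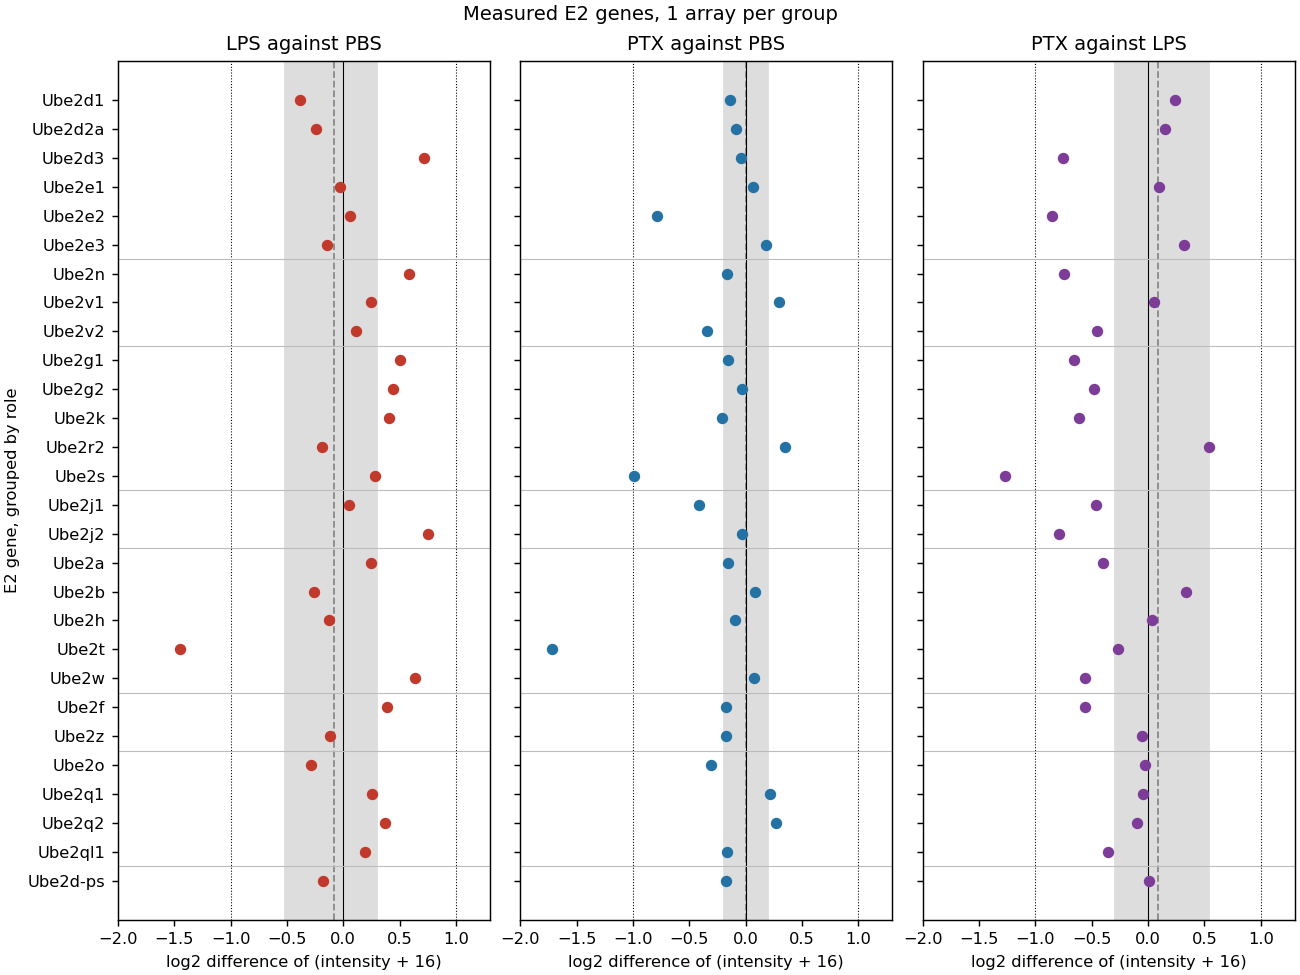
Log2 difference of (intensity + 16) for the 28 measured E2 genes (rows, grouped by role) for the 3 pairs of arrays named above the panels, 1 array per group. Grey bands span the middle 50% of all 12299 measured genes, dashed lines their median and dotted lines 2-fold. Ube2t lies far to the left in both comparisons with PBS, and Ube2s in both comparisons of PTX.

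The median difference of the members was 0.16 in LPS against PBS, where the median of all measured genes was -0.08. It was -0.15 in PTX against PBS, against 0.01, and -0.31 in PTX against LPS, against 0.09. The members' median in LPS against PBS lay between -0.06 and 0.48 over 5 scalings of the arrays and was below 0 with hybridization control scaling (-0.06), so it has no settled direction. In PTX against PBS it lay between -0.19 and -0.15, and in PTX against LPS between -0.65 and -0.12. In PTX against PBS 20 of 28 genes lay below 0 and 8 above it (28.6%, against 50.7% of all genes above 0). With the mean over measured probe sets 4 of the 28 took the other sign in that comparison. The choice of probe set moved the members' medians too. With the mean over measured probe sets the median came to 0.0024 for LPS and -0.065 for PTX, each against PBS, and to -0.044 between PTX and LPS. With probe sets that can match several transcripts left out these were -0.030, -0.15 and -0.051. Of the 28 genes 14 changed sign between scalings in LPS against PBS (Ube2a, Ube2b, Ube2d-ps, Ube2d2a, Ube2e1, Ube2e2, Ube2e3, Ube2h, Ube2j1, Ube2o, Ube2ql1, Ube2r2, Ube2v2 and Ube2z), 11 in PTX against LPS and 3 in PTX against PBS (Ube2b, Ube2e1 and Ube2h). A direction given for these genes holds for the intensities as deposited. How many of all genes changed sign between scalings was not counted.

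Ube2t and Ube2s are the members best known from dividing cells, and they read differently after the 2 stimuli. Ube2t, which with the ligase Fancl attaches ubiquitin to Fancd2 and Fanci in the repair of DNA crosslinks, read 194 (PBS), 61.0 (LPS) and 47.8 (PTX). Only the PBS reading was above the level for a measured gene. The log2 difference was -1.45 for LPS and -1.72 for PTX, and -1.63 to -1.12 and -1.74 to -1.71 over the scalings. Its other probe set was below the level on all arrays (25.7 to 30.3) and cannot check it.

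Ube2s, which lengthens K11-linked chains for the anaphase-promoting complex, read 1743 (PBS), 2124 (LPS) and 869 (PTX). It was low on the PTX array alone. The difference was 0.28 in LPS against PBS, -0.99 in PTX against PBS and -1.27 in PTX against LPS, and over the scalings these ranged from 0.04 to 0.60, from -1.16 to -0.99 and from -1.61 to -1.04. This value rests on 1 probe set of a kind that can match several transcripts, since the other Ube2s probe set stayed between 33.8 and 34.9.

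Most cell cycle genes read lower than PBS on both other arrays. Of 28 measured genes of a cell cycle list 22 were at least 2-fold lower in LPS (median -1.57) and 21 in PTX (median -1.50), and none was higher in either. Of all genes 13.0% were that much lower in LPS and 2.37% in PTX, and 6.50% and 3.04% were higher. In PTX against LPS 4 of the 28 were at least 2-fold higher (Cenpe 2.33, Cdc20 1.64, Ccnb2 1.33 and Bub1b 1.29) and none was lower. In that comparison 13.7% of all genes were higher and 6.24% lower. Nusap1, a spindle gene, read 998 (PBS), 141 (LPS) and 136 (PTX), and Rrm2, a subunit of ribonucleotide reductase, read 1086, 227 and 188. Ube2t thus read low on the same arrays as most of that list, while Ube2s read low on the PTX array and not on the LPS array. Ube2c, which starts the chains that Ube2s lengthens and lies outside the rule, read 1011, 99.0 and 151.

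The promoters of these 2 genes are shown because they are the members with the largest differences in PTX against PBS. Each line gives the 250 bases before the RefSeq gene start (GRCm38.p6), 5′ to 3′ on the gene's strand, at chr1:134962315-134962564 (plus strand) for Ube2t and chr7:4812341-4812590 (minus strand) for Ube2s. Capitals mark matches on either strand to CCAAT, to TTTGAA (the CHR element of cell cycle genes), to GGCGGGAA (an E2F type motif) or to AANNGAAA (the core of sites for interferon regulatory factors), none of which overlap here.
Ube2t: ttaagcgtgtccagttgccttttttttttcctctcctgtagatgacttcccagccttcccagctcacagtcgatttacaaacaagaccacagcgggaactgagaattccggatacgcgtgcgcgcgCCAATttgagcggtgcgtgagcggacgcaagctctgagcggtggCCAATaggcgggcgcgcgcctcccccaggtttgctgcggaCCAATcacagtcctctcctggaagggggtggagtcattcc
Ube2s: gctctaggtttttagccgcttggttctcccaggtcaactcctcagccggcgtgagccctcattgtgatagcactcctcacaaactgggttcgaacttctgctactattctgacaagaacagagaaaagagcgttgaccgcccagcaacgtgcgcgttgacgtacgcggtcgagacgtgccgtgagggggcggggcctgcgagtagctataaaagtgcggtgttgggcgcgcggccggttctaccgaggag
Ube2t holds CCAAT 3 times, starting 124, 80 and 40 bases before the gene start, and Ube2s has no match to any of the 4 motifs. CCAAT occurs in 33.8% of all 32536 RefSeq promoter windows of this length, TTTGAA in 15.8%, GGCGGGAA in 1.87% and AANNGAAA in 21.3%. Windows were found for 25 of the 31 Ube2 genes (34 windows), of which 6 genes held CCAAT, 3 held TTTGAA, 4 held GGCGGGAA (Ube2a, Ube2e2, Ube2q1 and Ube2v1) and 4 held AANNGAAA (Ube2a, Ube2cbp, Ube2e2 and Ube2f). A match is a description of the letters and was not tested against the readings.

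**Figure D2:**
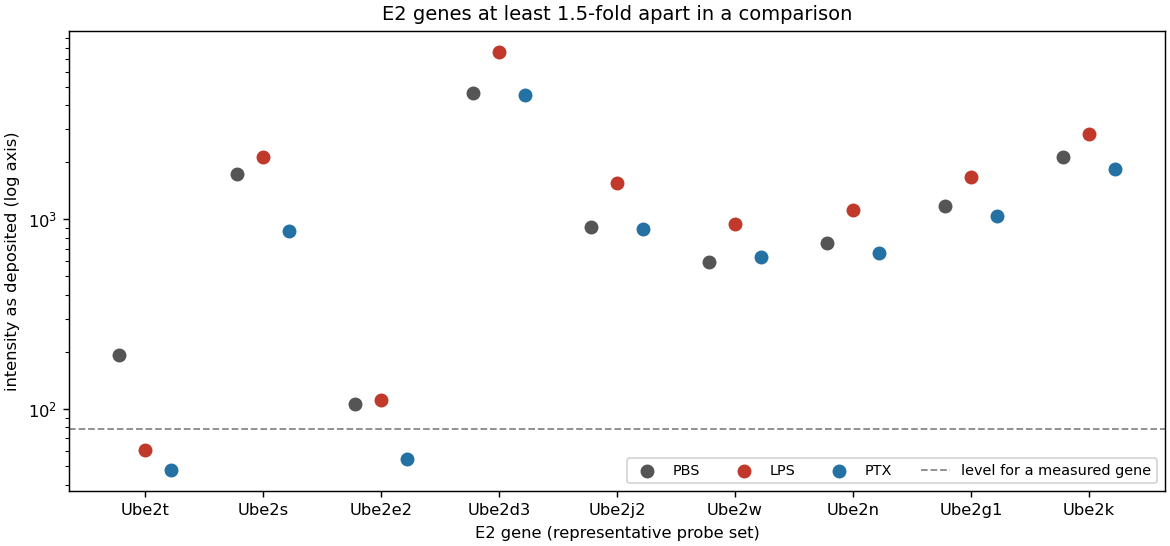
Deposited intensity (log axis) of the representative probe set of the 9 E2 genes at least 1.5-fold apart in a comparison, on the PBS, LPS and PTX arrays, 1 point per array. The dashed line is the level for a measured gene, 78.9. Ube2t is above it on the PBS array alone, Ube2s is lowest on the PTX array, and the 6 genes on the right are highest on the LPS array.

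The UBE2D and UBE2E families, the general partners of many RING ligases, had 6 measured genes, all within 2-fold in each comparison. Of all measured genes 80.5% were within 2-fold in LPS against PBS, 94.6% in PTX against PBS and 80.1% in PTX against LPS. Ube2d3, a broadly used E2, read 4622 (PBS), 7612 (LPS) and 4499.9 (PTX) in its brightest probe set, a log2 difference of 0.72 in LPS against PBS and -0.04 in PTX against PBS. The LPS reading was the highest of the 3, but the 6 other probe sets of Ube2d3 differed by only -0.11 to 0.27 in LPS against PBS. The second brightest read 3819, 4004 and 3764. The brightest probe set stood apart from the rest of the gene's readings. Its relatives Ube2d1 and Ube2d2a lay slightly lower in LPS, at -0.38 and -0.24, and the 5 probe sets of Ube2d2a gave -0.62 to 0.04.

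Within the UBE2E family Ube2e1 read 1834, 1796 and 1920.0 in its brighter probe set, nearly the same on the 3 arrays, and the dim other one read 107, 113 and 158.0. Ube2e3 differed by -0.14 in LPS and 0.18 in PTX. Ube2e2 was dim, and read 106 (PBS), 112 (LPS) and 54.8 (PTX). It was low on the PTX array alone, at -0.79 against PBS, with 1 probe set and with its PTX reading under the level for a measured gene. Ube2d-ps, which RefSeq lists as a long noncoding RNA gene, differed by -0.18 in LPS and -0.17 in PTX in its brighter probe set. The UBE2D genes are close paralogs, and whether their probes also read each other's transcripts was not tested.

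The E2 enzyme of K63-linked chains, Ube2n, was higher on the LPS array, and its partners differed less. Ube2n read 747 (PBS), 1125 (LPS) and 665 (PTX), with log2 differences of 0.58 for LPS, just inside 1.5-fold, -0.16 for PTX and -0.74 for PTX against LPS. The scalings gave 0.36 to 0.90 for LPS. Its other probe set was below the level for a measured gene, so 1 probe set carries this value. Ube2v1, a variant that lacks the active cysteine and pairs with Ube2n, read 1058, 1258 and 1306, higher than PBS on both other arrays (0.25 and 0.30). Its 2 probe sets gave nearly the same values, 0.25 and 0.24 in LPS against PBS. Ube2v2, the variant that pairs with Ube2n in DNA damage tolerance, read 1101, 1196 and 867, lowest after PTX (-0.34), and its other measured probe set, close to the level for a measured gene, gave -0.12.

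Of the 5 genes grouped as makers of K48-linked or K11-linked chains, Ube2s was described above. The medians of the 5 were 0.41 in LPS against PBS, -0.16 in PTX against PBS and -0.61 in PTX against LPS, and none of the 3 changed sign over the scalings. The values 0.41 and -0.61 are those of Ube2k, whose other measured probe set lay in the opposite direction in both comparisons. Ube2g1 read 1173 (PBS), 1666 (LPS) and 1048 (PTX), a difference of 0.50 in LPS, and its other measured probe set differed by -0.06. Ube2g2, which works with membrane ligases in the degradation of misfolded proteins of the endoplasmic reticulum, read 923, 1259.9 and 901. Both of its probe sets were higher in LPS, at 0.44 and 0.57. Ube2k, which builds K48-linked chains unaided, read 2133, 2829 and 1845, a difference of 0.41 in LPS, whereas its other measured probe set read 179, 56.1 and 189, a difference of -1.43. Ube2r2, a relative of the E2 of SCF ligases, went the other way and read 1413, 1235 and 1805, with both probe sets higher after PTX (0.35 and 0.31).

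The membrane-anchored enzymes of degradation from the endoplasmic reticulum differed from each other. Ube2j1 read 1075 (PBS), 1114 (LPS) and 803 (PTX) in its brighter probe set and 803, 833 and 542 in the other. Both probe sets put the PTX array lowest, at -0.41 and -0.55 against PBS, and both gave 0.05 for LPS. Ube2j2 read 914, 1553 and 892, and its difference of 0.75 in LPS against PBS was the largest positive one among the 28 genes. Its other measured probe set lay in the opposite direction, at -0.82 (343, 187 and 307), so the gene has no direction that holds for both readings.

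Among the E2 enzymes of DNA repair and histones, Ube2a and Ube2b are the mouse relatives of yeast Rad6 and work with Rad18 on the replication clamp. Ube2a read 1846, 2189 and 1649.9, at 0.24 for LPS and -0.16 for PTX, and its other probe set gave -0.01 and 0.03. Ube2b read 2456, 2051 and 2600.3 in its brightest probe set, a difference of -0.26 in LPS, while its second probe set (1216, 1258 and 1292) gave 0.05 and its 2 others gave -1.63 and -1.75. Ube2h, the E2 of the CTLH ligase, read 511, 468 and 478. Another Ube2h probe set, which can match several transcripts, read 399, 417 and 679, and its 0.74 in PTX against PBS was the largest positive value of any measured E2 probe set in that comparison. Under quantile normalization that probe set represents the gene, and Ube2h then stood at 0.74 for PTX.

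Ube2w, which attaches ubiquitin to the amino terminus of proteins, is the member whose probe sets disagreed most. Its representative probe set read 599 (PBS), 942 (LPS) and 633 (PTX), and another read 876, 62.0 and 1029. The platform annotation ties both to the same source sequence. In LPS against PBS they differed by 0.64 and -3.52, while in PTX against PBS they gave 0.08 and 0.23. The remaining measured probe set read 85.5, 37.0 and 99.5 (-0.94 in LPS against PBS). The disagreement is thus limited to the LPS array, and no direction can be given for Ube2w after LPS.

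Of the E2 enzymes for ubiquitin-like modifiers, Ube2f, which passes NEDD8 to Cul5, read 1393, 1832 and 1234. Of its 6 measured probe sets 4 were higher in LPS than in PBS (0.18 to 0.39) and the 2 dimmest of the 6 were lower (-0.41 and -0.69). The 4 are of kinds that can match several transcripts and the 2 are not, so Ube2f has no direction in LPS that holds for all readings. All 6 lay below 0 in PTX against PBS (-0.32 to -0.01). Ube2z, which takes ubiquitin and the modifier FAT10 from the activating enzyme Uba6, read 969.5, 892 and 856. FAT10 itself (Ubd) read 13.4, 89.3 and 18.2 and reached the level of 78.9 on the LPS array alone, so it entered only through the array on which it was high. Of the large and less studied members, Ube2q2 (725, 940.0 and 876) was above PBS on both other arrays. The brighter Ube2q1 probe set (1862, 2228 and 2161) was above PBS on both and the other (309, 239 and 259.9) was below it on both, so Ube2q1 has no direction that holds for both readings. Ube2o (146, 117 and 114) was below PBS on both. Ube2ql1 was dim, at 95.7 to 127.

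At the level of single probe sets and a limit of 2-fold, low readings on the LPS array were the most frequent difference. Their share was smaller in the E2 genes than over all probe sets. At 1.5-fold 10 E2 probe sets were lower in LPS than in PBS (15.4%, against 26.6%). As many, 10, were lower in PTX than in LPS (15.4%, against 14.1%). Of 65 measured E2 probe sets none was at least 2-fold higher in LPS than in PBS (6.23% of all 21805 measured probe sets with 1 symbol), and 6 were lower (9.23%, against 16.3%). In PTX against PBS none was higher (2.76% of all) and 1 was lower (1.54%, against 2.19%). In PTX against LPS 5 were higher (7.69%, against 17.3%) and 1 was lower (1.54%, against 6.22%). Those lower in LPS were the Ube2t probe set and 5 that do not represent their gene: 2 of Ube2b (167, 43.3 and 166, and 514, 141 and 713), 1 each of Ube2k and Ube2w, and the dimmer Ube2d-ps probe set (182, 79.2 and 173).

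Of these, 4 were at least 2-fold lower on the LPS array than on both others (6.15%, against 13.3% of all probe sets). They belong to Ube2b, Ube2k and Ube2w, genes whose representative probe sets differed by -0.26, 0.41 and 0.64 in LPS against PBS. Among the 20 members with several measured probe sets none of the representative ones was at least 2-fold lower in LPS, against 10.6% of all such probe sets, while 5 of the 37 others were (13.5%, against 20.5%). A lower share among the brightest probe sets than among the others was thus seen over the whole array and not in the E2 genes alone.

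The probe sets of a member agreed better in PTX against PBS than in LPS against PBS, and so did those of all genes on the array. For the 20 genes with several measured probe sets the range between their highest and lowest log2 difference was 0.24 at the median in PTX against PBS (also 0.24 over all such genes), and no gene reached 1, against 3.86% of all. In LPS against PBS the median range was 0.41 (0.73 over all) and 5 of the 20 genes reached 1, against 37.8% of the 5519 such genes on the array. Of the 37 other probe sets 25 shared the sign of the representative one in PTX against PBS and 21 in LPS against PBS. Shared signs were not counted over all genes. Probe sets of a gene are readings of the same RNA and not replicates of a condition.

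**Figure D3:**
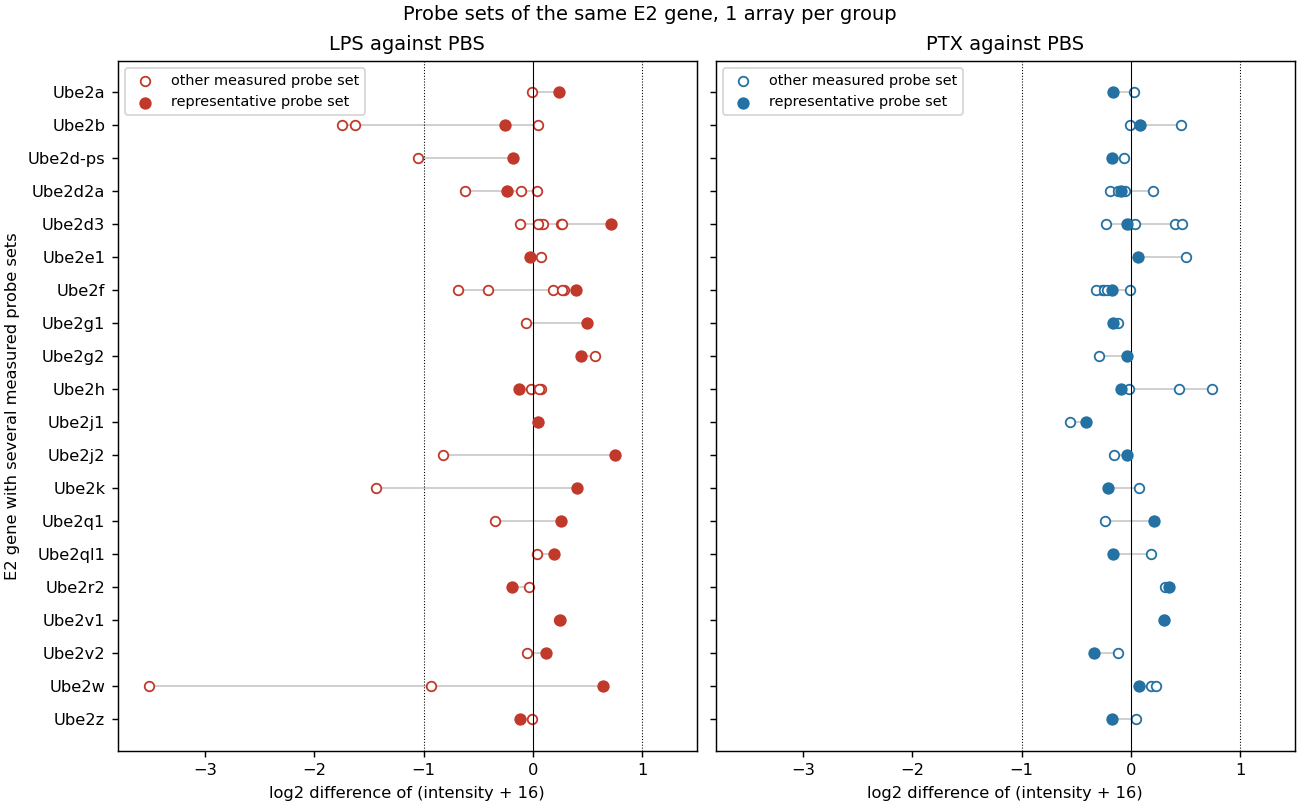
Log2 difference of (intensity + 16) for each measured probe set of the 20 E2 genes with several, in LPS against PBS (left) and PTX against PBS (right). Filled points are the representative probe set, open points the others, grey lines join a gene's readings and dotted lines mark 2-fold. In LPS against PBS open points of Ube2b, Ube2d-ps, Ube2k and Ube2w lie beyond 2-fold lower, and in PTX against PBS all points lie within 2-fold.

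The other genes of the pathway were read in the same way. Of 7 measured E1 genes 1 was at least 2-fold higher in both comparisons with PBS, namely Uba7, the activating enzyme of the modifier ISG15, at 237 (PBS), 773 (LPS) and 966 (PTX). Of all genes 6.50% were that much higher in LPS and 3.04% in PTX. Uba6 read 691, 629 and 520.2, and Sae1, a subunit of the SUMO activating enzyme, read 965, 849.6 and 539.7 (-0.82 in PTX against PBS). The median of the E1 genes was -0.13 in LPS, with a sign that changed between scalings, and -0.17 in PTX.

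Of 13 genes for ubiquitin-like modifiers 2 were at least 2-fold higher in LPS, Ubd (1.84) and Sumo3 (1.35), and none was lower. Of all genes 6.50% were that much higher and 13.0% lower. Sumo3 read 1217, 3137 and 1527. The median of the 13 was 0.63 in LPS against PBS (0.42 to 0.96 over the scalings) and 0.19 in PTX against PBS. In PTX against LPS 3 of the 13 were at least 2-fold lower, against 6.24% of all genes. These were Ubd (-1.62), Ufm1 (-1.17) and Sumo3 (-1.03).

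The 8 E2 genes and variants that carry other names were all within 2-fold in each comparison, as most of the Ube2 genes were. So were most of all measured genes, at 80.5% in LPS against PBS, 94.6% in PTX against PBS and 80.1% in PTX against LPS. Among the 8 E2 genes Birc6, a giant E2 that restrains cell death, read 1001, 1685 and 1051, and Ufc1, the E2 of the modifier UFM1, read 1288, 2133 and 1411. Cdc34, the E2 of SCF ligases, differed by 0.37 in LPS and -0.17 in PTX.

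Of 56 measured E3 ligases 3 were at least 2-fold higher in LPS, against 6.50% of all genes, and 6 were lower, against 13.0%. Peli1, a ligase of Toll-like receptor signalling that works with Ube2n, read 343 (PBS), 1413 (LPS) and 501 (PTX), and Herc6, the mouse ligase for ISG15, read 377, 1519 and 2143. Peli2 (704, 141 and 850.5) and Nedd4 (324, 63.1 and 264) were lowest after LPS. Traf6, the ligase partner of Ube2n, read 272, 188 and 283, and Fancl, the partner of Ube2t, read 261, 211 and 233. In PTX against PBS 3 ligases were higher (Herc6 2.46, Rnf114 1.29 and Trim25 1.22) and none was lower. Of all genes 3.04% were higher and 2.37% lower in that comparison. The median of the ligases was -0.09 in LPS, with a sign that changed between scalings, and 0.08 in PTX.

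Of 34 cullin-RING and neddylation genes 1 was at least 2-fold higher in LPS (Dcun1d4, 1.05), against 6.50% of all genes. Lower were 3 (Fbxw7 -1.18, Rbx1 -1.13 and Skp2 -1.01), against 13.0%. All 34 were within 2-fold in PTX against PBS, as were 94.6% of all genes. Of 54 deubiquitinases 2 were at least 2-fold higher in LPS, against 6.50% of all genes, and 1 was lower, against 13.0%. Usp18, which removes ISG15, read 729, 3509 and 3891. Tnfaip3, the A20 protein that edits K63-linked chains and restrains NF-kB, read 1598 (PBS), 3499.8 (LPS) and 865 (PTX), highest after LPS and lowest after PTX (1.12 and -0.87). Usp28 was the one lower in LPS (-1.30). In PTX against PBS 1 of the 54 was higher (Usp18, 2.39), against 3.04% of all genes, and none was lower, against 2.37%.

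**Figure D4:**
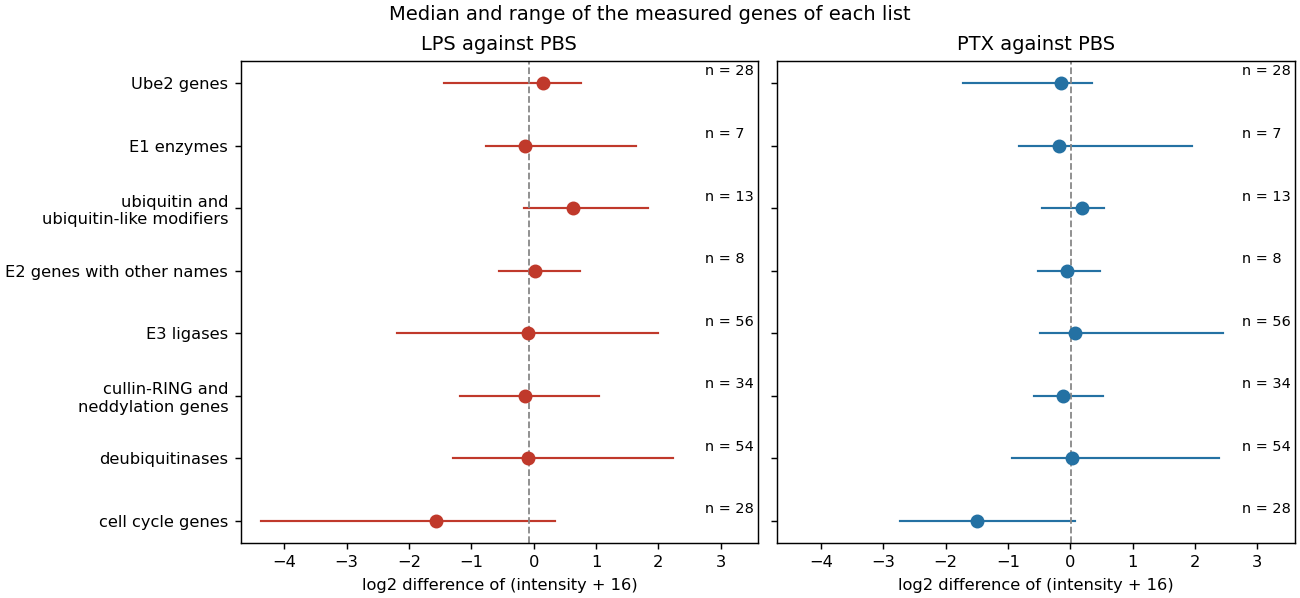
Median (point) and range (line) of the log2 difference of (intensity + 16) over the measured genes of each list, in LPS against PBS (left) and PTX against PBS (right), with n the number of genes. The dashed line is the median of all 12299 measured genes. The Ube2 genes have a median of 0.16 (LPS) and -0.15 (PTX), against -0.08 and 0.01 for all measured genes, and the cell cycle genes lie at -1.57 and -1.50.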

How the data were processed

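RNA of mouse dendritic cells was measured on 3 Affymetrix arrays, 1 per group (PBS, LPS and PTX). Per the labels, biotin-labelled cRNA was made from 3 µg of total RNA. The deposited values are intensities on a linear scale, 1 per probe set, with a lowest value of 1. How they were summarized, background-corrected and scaled is not given in the sources used here, and their medians differ between arrays.

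No scaling was added. Log2 values were taken with a pseudocount of 16. The platform annotation names 1 gene for 34945 of the 45101 probe sets, several for 932 and none for 9160, and 64 are controls. A gene's representative is the probe set whose log2 values average highest over the 3 arrays, and 12299 of 18193 genes were measured. Differences were counted at 2-fold and 1.5-fold beside the same share over all measured genes. With 1 array per group there is no test, and the number of arrays limits the precision. The counting was tested on simulated data with Python 3.11.15, numpy 2.4.6 and pandas 2.3.3. Promoter sequences are from RefSeq (GRCm38.p6), and the sources used here name no build for the probe sets.

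The members, gene lists and limits were chosen with earlier results of these data known. Values are given for every member at least 1.5-fold apart in a comparison and for the best known member of each role group, and others were added after their values were seen. Of the other lists, members at least 2-fold apart in a comparison with PBS are named, at most 4 per list and comparison. Of the cell cycle list only Nusap1 and Rrm2 are named there. Members at least 2-fold apart between PTX and LPS are named for the modifiers and the cell cycle list only. Further ones (Uba6, Sae1, Birc6, Ufc1, Cdc34, Traf6, Fancl) were added after their values were seen. The alternatives were 2 other pseudocounts, 4 other scalings, 2 other filters, 2 other ways to summarize a gene and leaving out probe sets that can match several transcripts.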

Additional observations from a re-analysis of the deposited data

How the results depend on the processing

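With 1 array per group no replicate could be left out, and no paired analysis was possible because each group has 1 array. In LPS against PBS the count of members at least 2-fold higher was 0 and became 2 (Ube2d3 and Ube2j2) with median centring and with 75th percentile scaling. Of all genes 1393 of 12299 and 1365 of 12404 were higher under these settings. The count at least 2-fold lower was 1 and became 0 with the filter at the 75th percentile, which drops Ube2t, and 2 with the mean over measured probe sets. Of all genes 775 of 7589 and 1677 of 12333 were lower under these settings. In PTX against PBS the count higher stayed at 0 in all 11 alternatives. The count lower was 1 and fell to 0 under the 75th percentile filter. It became 2, with Ube2s as the second gene, under a pseudocount of 1, quantile normalization, median centring and 75th percentile scaling. Lower among all genes were 219 of 7589, 335 of 12277, 344 of 12483, 305 of 12299 and 295 of 12404, in that order. In PTX against LPS the count higher was 0 and became 2 with the mean and 1 with the median difference over measured probe sets. Of all genes 1775 and 1720 of 12333 were higher under these settings. The count lower was 1 and became 2 with a pseudocount of 1 and with quantile normalization, 6 with median centring, 5 with 75th percentile scaling and 0 with probe sets that can match several transcripts left out, which drops Ube2s. Of all genes 845 of 12277, 1077 of 12483, 1517 of 12299, 1449 of 12404 and 674 of 10696 were lower, in that order.

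The members' median minus that of all measured genes was 0.24 in LPS against PBS and became -0.027 with quantile normalization, 0.14 with the mean over measured probe sets and 0.080 with shared probe sets left out. It was -0.40 in PTX against LPS and became -0.29 with a pseudocount of 64 and with quantile normalization, -0.28 with the filter at the 75th percentile, -0.18 with no filter and with the mean over measured probe sets, and -0.17 with the median difference and with shared probe sets left out. In PTX against PBS it was -0.16 and came to -0.068 with the mean and -0.079 with the median difference over measured probe sets, and lay between -0.16 and -0.10 in the other 9 alternatives. Of the single members Ube2w changed sign and passed 2-fold with the mean over measured probe sets (-1.27 in LPS against PBS and 1.44 in PTX against LPS) and with the median difference (1.12 in PTX against LPS), since its probe sets oppose each other. Within 2-fold, leaving out shared probe sets turned Ube2j2 (to -0.82 in LPS against PBS and 0.67 in PTX against LPS) and Ube2f (to -0.69 and 0.47). It also turned Ube2d3, to 0.15 in PTX against LPS and 0.40 in PTX against PBS. In all, 3 of 26 members took the other sign in LPS against PBS, 3 in PTX against LPS and 1 in PTX against PBS. The mean over measured probe sets turned 5, 3 and 4 of 28 members in these comparisons, among them Ube2k (to -0.51 in LPS against PBS and 0.45 in PTX against LPS). The cause of the other shifts was not tested. Of all 12299 measured genes the median in LPS against PBS was -0.08 and lay between -0.30 and 0.24 over the scalings. Among the genes beyond 2-fold in that comparison 33.3% were higher, and 20.9% to 56.5% over the scalings. Dim members such as Ube2t and Ube2e2 are read near the level for a measured gene, so the sizes of their differences depend on the pseudocount.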
